A study of Mus musculus with 62 samples.

Results

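The genes described here encode the proteins of the cytosolic ribosome. They were taken by symbol: protein-coding mouse genes named Rpl or Rps and a digit, with Rplp0, Rplp1, Rplp2 and Rpsa, and without the Rps6k kinases, Rps19bp1 and pseudogenes. The rule finds 88 genes in the RefSeq gene list of the GRCm38.p6 assembly: 31 small-subunit genes, 43 large-subunit genes, 3 stalk genes and 11 genes for close copies of a standard protein (the -like paralogs). Of these, 85 had a row in at least 1 of the 3 count tables, out of 18821 genes in any table. There were 84 in liver, 84 in prefrontal cortex and 85 in striatum, and 80 passed the filter on low counts in each tissue. Rpl10l, Rpl26 and Rps27rt were not analysed here.

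The study gave female C57BL/6 mice the MARBLES mixture of polychlorinated biphenyls (PCBs, persistent chlorinated pollutants) by mouth at 0.1, 1 or 6 mg/kg, or vehicle alone, and sequenced RNA from liver, prefrontal cortex and striatum. All groups shared the sex and strain; age and length of dosing are not given in the sources used here. The 62 libraries comprised 4 vehicle libraries in each tissue, 4 (liver) or 5 (each brain region) at 0.1 mg/kg, and 6 in each tissue at 1 and at 6 mg/kg. Libraries are called here by the animal number in their label; the labels do not say that each number is a separately housed or separately dosed mouse, so p-values measure the spread between libraries.

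Ribosomal proteins assemble with ribosomal RNA into a small subunit, which reads the messenger RNA, and a large subunit, which joins amino acids. The stalk of the large subunit, built by Rplp0, Rplp1 and Rplp2, recruits the translation factors. Most of their messenger RNAs begin with a C and a run of pyrimidines, the 5′ terminal oligopyrimidine (TOP) motif, through which mTOR signalling controls their translation. The messenger RNAs are short and abundant, and the genome holds many processed copies of them, so their counts are sensitive to length bias and to the treatment of reads that match several places.

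Start sites are shown first because the TOP motif lies there; some but not all members have it at the annotated start. RefSeq promoter windows on GRCm38.p6 (250 bases before to 50 after the annotated start) were found for 68 of the 88 members and for 57 of the 77 that are not -like paralogs, here called standard members. The lines below give 40 bases before to 20 bases after the annotated start, 5′ to 3′, where capitals mark a run of at least 5 bases that opens with C, holds only C or T and begins within 10 bases of the start. Rps6, Rps18, Rpl13a and Rps27 have long runs, 2 of them in genes that were hardly counted, Rpl22l1 is a -like paralog with a run, and Rps3 and Rplp0 have none of that length at the annotated start.
Rps6 (chr4:86857348-86857407, minus strand): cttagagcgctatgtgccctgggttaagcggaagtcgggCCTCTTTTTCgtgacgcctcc
Rps18 (chr17:33955646-33955705, minus strand): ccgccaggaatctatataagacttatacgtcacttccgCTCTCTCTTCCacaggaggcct
Rpl13a (chr7:45128726-45128785, minus strand): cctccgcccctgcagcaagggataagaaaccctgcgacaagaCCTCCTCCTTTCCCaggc
Rps27 (chr3:90213629-90213688, minus strand): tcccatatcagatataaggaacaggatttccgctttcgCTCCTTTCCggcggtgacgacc
Rpl22l1 (chr3:28805468-28805527, plus strand): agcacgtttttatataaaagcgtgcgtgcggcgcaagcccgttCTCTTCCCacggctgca
Rps3 (chr7:99483690-99483749, minus strand): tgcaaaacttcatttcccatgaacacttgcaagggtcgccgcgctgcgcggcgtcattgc
Rplp0 (chr5:115559427-115559486, plus strand): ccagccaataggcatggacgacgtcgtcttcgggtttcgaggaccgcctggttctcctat

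At the annotated start itself, a C followed by at least 4 pyrimidines stood in 13 of 57 standard members (22.8%), against 2.67% of 17486 protein-coding genes. Within 10 bases of the start such a run was present in 59.6% of standard members and in 34.9% of protein-coding genes. The hexamer CCGGAA, the core letters of ETS family sites, was found on either strand of the window in 56.1% of standard members, against 20.9% of protein-coding genes. AAGATGGC, letters of the YY1 motif, was in 8.77% against 3.56%, GGGCGG (the Sp1 GC box) in 61.4% against 49.2%. The TATA box, searched as TATAAA, was in 10.5% against 14.8%. Matches of different motifs may overlap within a window, and a match is a description of letters only. These searches were chosen after the expression data had been seen.

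The libraries held 7.38 M to 10.2 M gene counts (M, a count of 10 to the power of 6) in liver, 8.72 M to 12.1 M in prefrontal cortex and 8.28 M to 12.02 M in striatum. The members took 1.78% to 3.28% of all counts in liver, 0.932% to 1.53% in prefrontal cortex and 1.04% to 2.02% in striatum. Marker genes mostly followed the tissue labels. The 6 hepatocyte markers summed to 104976 to 122631 CPM (counts per M counts of the library) in vehicle liver, and the 4 of them in the cortex table to at most 5.36 CPM in vehicle prefrontal cortex; the 3 in the striatum table reached 607 CPM in 1 vehicle library, but Ttr is on both this list and that of choroid plexus, so the sums are not separate. The 6 striatal projection neuron markers overlapped, with 2270 to 5147 CPM in vehicle striatum and 897 to 2324 CPM in vehicle prefrontal cortex. In vehicle striatum the 3 cortical glutamatergic markers ranged from 70.6 to 1059 CPM, against 1702 to 2116 CPM in vehicle prefrontal cortex, and the 5 choroid plexus markers from 14.2 to 653 CPM, against 6.73 to 10.5 CPM. Because the tissues are mixtures of cells, fewer cells of a type and less RNA per cell cannot be told apart.

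The member levels followed a steep top, a flat middle and a gap. Levels between genes are compared per length, as CPM per kilobase of coding sequence, with all 62 libraries scaled together. In vehicle prefrontal cortex the middle 50% of the 76 standard members with a coding length lay between 166 and 250 CPM per kb, a 1.51-fold spread, and the median was 211. In vehicle striatum the median was 241 and in vehicle liver 1034. Rpl41, whose coding sequence is 75 bases and encodes the smallest ribosomal protein, stood highest in every tissue at 10443 ± 2897 CPM per kb in liver, 2189 ± 205 in prefrontal cortex and 2266 ± 406 in striatum (SD, n = 4 each). The stalk gene Rplp1 came second in each tissue, at 3201 ± 836, 789 ± 93 and 986 ± 142 CPM per kb. The other stalk genes were lower: Rplp2 reached 1234 ± 275 in liver and Rplp0, the scaffold of the stalk, 896 ± 91. Below them neighbours could differ by less than their SDs: in prefrontal cortex Rps15 (362 ± 25) and Rpl13 (351 ± 45 CPM per kb) came next. The order over the 76 standard members was close between the brain regions (Spearman's rho 0.96) and looser between liver and prefrontal cortex (0.61) or striatum (0.63). These correlations are over genes measured in the same libraries and describe them only.

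**Figure D1:**
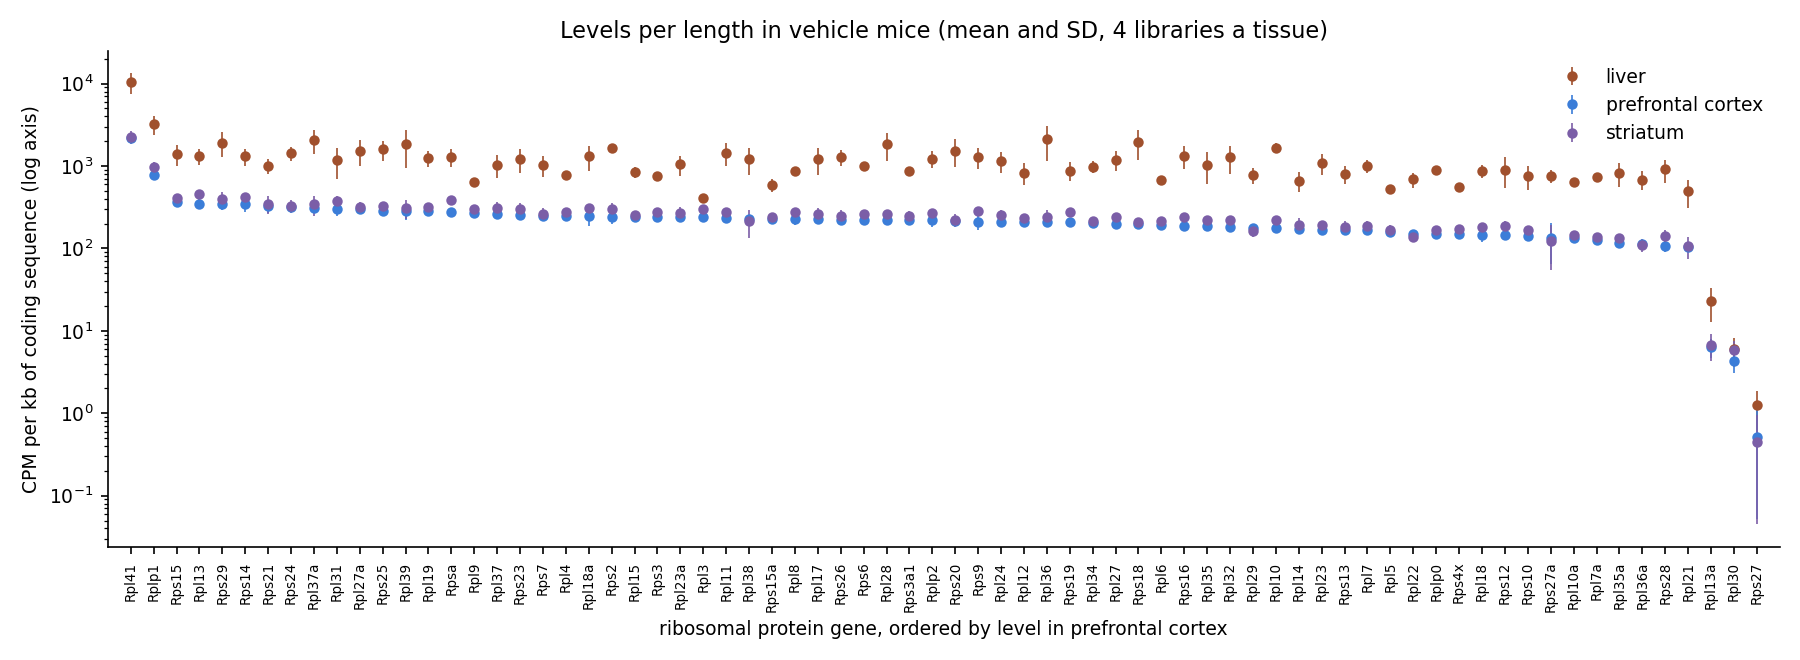
CPM per kb of coding sequence (log axis) of 72 of the 76 standard members in vehicle liver, prefrontal cortex and striatum, ordered by prefrontal cortex; points are means of 4 libraries and bars the SD, with lower bars that would reach 0 cut short. Rpl41 and Rplp1 stand highest, liver lies above both brain regions for most genes, and Rpl13a, Rpl30 and Rps27 fall far below the rest.

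Standard genes at the bottom were hardly counted. Rps27 (a small-subunit protein, chr3:90212667-90213648) had 0 to 12 counts per library in liver and 0 to 9 in each brain region, and was at 0 in 8 liver, 6 prefrontal cortex and 4 striatum libraries. Rpl30 (chr15:34440505-34443276) had 3 to 27 counts in liver, 12 to 38 in prefrontal cortex and 11 to 39 in striatum. Rpl13a (chr7:45125563-45128745), which is also known for a role in the interferon response outside the ribosome, had 38 to 120, 30 to 99 and 32 to 111. The next standard member up in prefrontal cortex and striatum, Rpl21, stood at 103 and 107 CPM per kb in vehicle libraries, against 6.33 and 6.69 for Rpl13a. These low values were thus found in every library of every tissue. Of the 50-base stretches in the transcript of Rps27, 98.6% also occur in transcripts of other genes; the share is 76.4% for Rpl30 and 57.4% for Rpl13a. Over standard members Spearman's rho between the share and the level was -0.11 in liver, -0.23 in prefrontal cortex and -0.20 in striatum. Rpl10, with 92.1% shared, had 1671 CPM per kb in vehicle liver, above the median of standard members, and 176 and 220 CPM per kb in prefrontal cortex and striatum, below it. How reads matching several places were treated is not given in the sources used here, so levels of members with shared stretches are uncertain, and its part in the low values was not tested.

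Several -like paralogs were hardly counted, while others came closer to their standard partners. Rpl22 and its copy Rpl22l1 had 58.2 ± 4.7 and 27.4 ± 1.2 CPM in vehicle prefrontal cortex, 52.2 ± 3.0 and 33.5 ± 7.8 CPM in vehicle striatum, and 264 ± 54 and 73.5 ± 25 CPM in vehicle liver. Rpl3l, the striated-muscle form of Rpl3, stayed at 0 to 11 counts per library in all 3 tissues, and Rpl39l, the testis form of Rpl39, was listed in striatum only, with at most 5 counts. Rpl36al had at most 28 counts in any library. Rpl7l1, which acts in ribosome assembly, had 101 ± 7.9 CPM in vehicle liver. Rps27l, a copy of Rps27 known as a p53 target, was the reverse case: its 348 ± 67 CPM in vehicle liver compares with 0.316 ± 0.16 CPM for Rps27 (SD, n = 4; both have a coding length of 252 bases), and the count for Rps27 is the one described above.

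The first comparison asked how the members differ between tissues in vehicle mice. Nearly all were higher in liver than in brain. Against prefrontal cortex, 79 of 80 tested members were higher and 0 lower by edgeR's quasi-likelihood test (adjusted p under 0.05 over all tested genes); 84.9% of all 13838 tested genes were called in that comparison and 38.9% were called higher. The median member was higher by 2.32 on the log2 scale (5.0-fold), against -0.19 over all genes. Against striatum 79 of 80 were again higher, with a median of 2.17 (4.50-fold); 83.7% of genes were called and 38.1% called higher. The exception in both was Rpl30, at 0.44 ± 0.37 (SE, adjusted p = 0.275) and 0.00 ± 0.36 (adjusted p = 0.996). By role, the median differences between liver and prefrontal cortex were 2.41 for 30 small-subunit genes, 2.27 for 42 large-subunit genes, 2.48 for the stalk genes and 2.08 for 5 -like paralogs.

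The size of that difference depended on the length and GC correction. Members are short: their median transcript had 799 bases, against 2779 over all genes, while their median GC content (50.7%) was close to that of all genes (50.5%). When each library was corrected for trends with GC content and length (an offset fitted on genes other than the members), 73 members were higher in liver than in prefrontal cortex and 4 were lower, and the median became 0.95 (1.93-fold), against 0.29 over all genes; 47.7% of all genes were called higher in that fit. Against striatum 67 were higher and 4 lower, with a median of 0.82 (1.77-fold), and 47% of genes were called higher. The 4 members lower in liver with the offset were Rpl30, Rpl3, Rpl9 and Rpl22l1 in both comparisons. The offset takes away the part of a tissue difference that runs with length, whether it arose in the libraries or in the tissue, and these cannot be told apart. Scaling by total counts gave member medians of 1.60 and 1.48, with the median of all genes at -0.89 and -0.87.

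Rps27l differed most between tissues. Its level in the 4 vehicle livers was 275, 327, 356 and 436 CPM, against 4.83, 5.84, 6.00 and 3.98 CPM in the prefrontal cortices and 7.03, 7.27, 6.77 and 6.24 CPM in the striata, so the groups lay far apart. The log2 difference was 6.07 ± 0.20 between liver and prefrontal cortex (SE, edgeR adjusted p = 3.33e-12) and 5.66 ± 0.18 between liver and striatum (adjusted p = 1.01e-11), and it stayed at 4.12 and 3.69 with the offset. Rps23rg1, a retrocopy of Rps23, came next, with 13.3, 13.1, 18.7 and 26.3 CPM in liver and at most 1.21 CPM in any vehicle brain library. Its differences were 4.68 ± 0.34 and 4.57 ± 0.34. Rpl10, at the base of the stalk and a joining point of the subunits, had 1018, 915, 1146 and 1212 CPM in the vehicle livers, 102, 115, 110 and 126 CPM in the prefrontal cortices and 146, 130, 151 and 139 CPM in the striata. Its differences were 3.24 ± 0.14 (adjusted p = 5.19e-11) and 2.91 ± 0.15 (adjusted p = 4.52e-10). At the other end, Rpl3, the large-subunit protein nearest the peptidyl transferase centre, had 470, 522, 553 and 409 CPM in liver and 408, 365, 351 and 343 CPM in striatum, a log2 difference of 0.40 ± 0.13 (adjusted p = 0.0138) that turned to -0.65 (adjusted p = 0.000297) with the offset.

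Between the brain regions the member differences were small. Of 79 tested members, 12 were higher in striatum than in prefrontal cortex and 0 lower, with 22.2% of all genes called and 11% called higher, and the median member stood at 0.19 against 0.02 over all genes. That median was 0.12 with the offset, 0.12 without animal 3 and 0.29 without animal 8. The share of members higher, 12 of 79, is thus near the share over all genes. Of the 12, 9 belonged to the small subunit, among them Rpsa, Rps9, Rps12, Rps16 and Rps19, and 3 to the large subunit (Rpl3, Rpl10 and Rpl13); the subunits were not tested against each other. Rpsa, which also serves as a laminin receptor, had 231, 228, 259 and 275 CPM in prefrontal cortex and 356, 297, 387 and 334 CPM in striatum. The log2 difference was 0.47 ± 0.10 (SE, edgeR adjusted p = 0.00561). Rps19, the gene most often mutated in Diamond-Blackfan anaemia, had a difference of 0.42 ± 0.10 (edgeR adjusted p = 0.0100); its values were 81.4 to 98.5 CPM in prefrontal cortex and 110 to 135 CPM in striatum. With the offset 12 were higher and 2, Rpl22 and Rpl29, lower, where 11.4% of all genes were called higher. The number of calls rested on single animals: it was 3, 5 and 1 without the vehicle libraries of animals 7, 4 and 3, where 11.9%, 16% and 12.1% of all genes were called, and 21 without animal 8 (23.4% of all genes). Marker sums of vehicle striatum and prefrontal cortex did not overlap for oligodendrocytes (4 of 4 in the table, 3500 to 5329 against 1807 to 2663 CPM), neurons (4 of 4, 2758 to 3331 against 4362 to 5232 CPM) and astrocytes (4 of 4, 1531 to 1688 against 1394 to 1444 CPM); their part in the result was not tested.

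Other genes of the translation machinery were called in both directions between liver and prefrontal cortex, where 38.9% of all genes were higher. Of 31 initiation factor genes, 24 were higher in liver and 4 lower, with a median of 1.08. Of 8 elongation factor genes 6 were higher and 1 lower (median 1.28), and of 17 other genes with TOP messenger RNAs 15 were higher and 2 lower (median 1.62). Of 37 ribosome biogenesis genes, which build the particle in the nucleolus, 15 were higher and 9 lower (median 0.22). The nuclear-encoded respiratory chain subunits, which like the members have short messenger RNAs, gave 76 higher and 2 lower of 79, with a median of 2.15 that became 0.73 with the offset.

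The second comparison asked whether the PCB mixture changed the members. In the main fit, without the GC and length offset, no member was called by edgeR in any of the 12 dose comparisons. The fit with the offset called 4 members in striatum at 6 against 0.1 mg/kg, described below. In liver at 6 mg/kg 0 of 80 passed, where 2.8% of 12968 tested genes did. In liver at 1 mg/kg 0% of genes were called, at 0.1 mg/kg 0.0154%, and at 6 against 0.1 mg/kg 0.0386%. In prefrontal cortex 0% were called at each dose against vehicle and 0.108% at 6 against 0.1 mg/kg. In striatum 0% were called at each dose against vehicle and 2.91% at 6 against 0.1 mg/kg. At an unadjusted p under 0.05 there were 17, 0, 0 and 9 members in liver (6, 1 and 0.1 mg/kg against vehicle, and 6 against 0.1 mg/kg), where 24.2%, 8.44%, 4.1% and 12.8% of all genes passed. In prefrontal cortex there were 3, 17, 5 and 5, beside 9.27%, 8.29%, 6.43% and 10.1% of all genes. In striatum there were 3, 1, 3 and 5, beside 15.7%, 7.36%, 2.53% and 22.3%. The 17 of 80 in liver at 6 mg/kg were thus near the share of all genes. The 17 of 80 in prefrontal cortex at 1 mg/kg were above theirs. Others were below, such as 0 in liver at 1 mg/kg and 5 in striatum at 6 against 0.1 mg/kg. Members move together, so none of these is a count of independent results. DESeq2 called 4 members in liver at 6 mg/kg, all lower (Rpl5, Rpl9, Rpl10a and Rpl41), with 8.78% of all genes called, and 1 higher in striatum at 6 against 0.1 mg/kg (Rps2), with 7.26%.

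In prefrontal cortex most member estimates lay slightly above vehicle at each dose, without passing the test. At 1 mg/kg in prefrontal cortex 79 of 80 had a positive log2 fold change, with a median of 0.26 against 0.00 over all genes. That median became 0.03 with 1 surrogate variable in the fit. At 0.1 mg/kg it was 79 of 80 (median 0.21) and at 6 mg/kg 70 of 80 (median 0.11, and 0.03 without animal 55). In striatum 78, 42 and 67 of 80 were positive at 0.1, 1 and 6 mg/kg, with medians of 0.16, 0.01 and 0.10. The median at 6 mg/kg was -0.04 without animal 54, and that at 1 mg/kg ran from -0.03 to 0.09 with 1 library left out. In liver the medians were 0.02, 0.03 and -0.13 at 0.1, 1 and 6 mg/kg. Without vehicle animal 8 they became 0.21, 0.23 and 0.09, and without vehicle animal 3 -0.07, -0.04 and -0.22. These comparisons share their vehicle libraries within a tissue. Since members move together from library to library, the number on one side of 0 is not a count of independent results.

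The GC and length offset made the prefrontal cortex shifts smaller. The prefrontal cortex medians became 0.09, 0.07 and 0.03 at 0.1, 1 and 6 mg/kg. In striatum they became 0.09, -0.04 and -0.04, and in liver -0.02, -0.09 and -0.10, so the sign turned in striatum at 1 and 6 mg/kg and in liver at 0.1 and 1 mg/kg. The offset gave 0 called members in each dose comparison with vehicle. In striatum at 6 against 0.1 mg/kg it gave 4 lower members, with 0.251% of all genes called in that fit: Rpl41 at -0.56 ± 0.08 (SE, edgeR adjusted p = 0.00393), Rps18 at -0.40 ± 0.06 (adjusted p = 0.00393), Rpl36 at -0.61 ± 0.11 (adjusted p = 0.0215) and Rpl19 at -0.32 ± 0.07 (adjusted p = 0.0453). Without the offset their values were -0.36, -0.28, -0.27 and -0.15, and the smallest adjusted p was 0.150. Rps18 had 123 to 155 CPM at 0.1 mg/kg and 101 to 167 CPM at 6 mg/kg, so the uncorrected groups overlapped. The trend of expression on GC content (Spearman's rho per library between a gene's GC content and its deviation from the tissue mean) was 0.30 to 0.46 in the striata at 6 mg/kg and -0.33 to -0.03 at 0.1 mg/kg, without overlap; its part in these values was not tested beyond the offset.

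**Figure D2:**
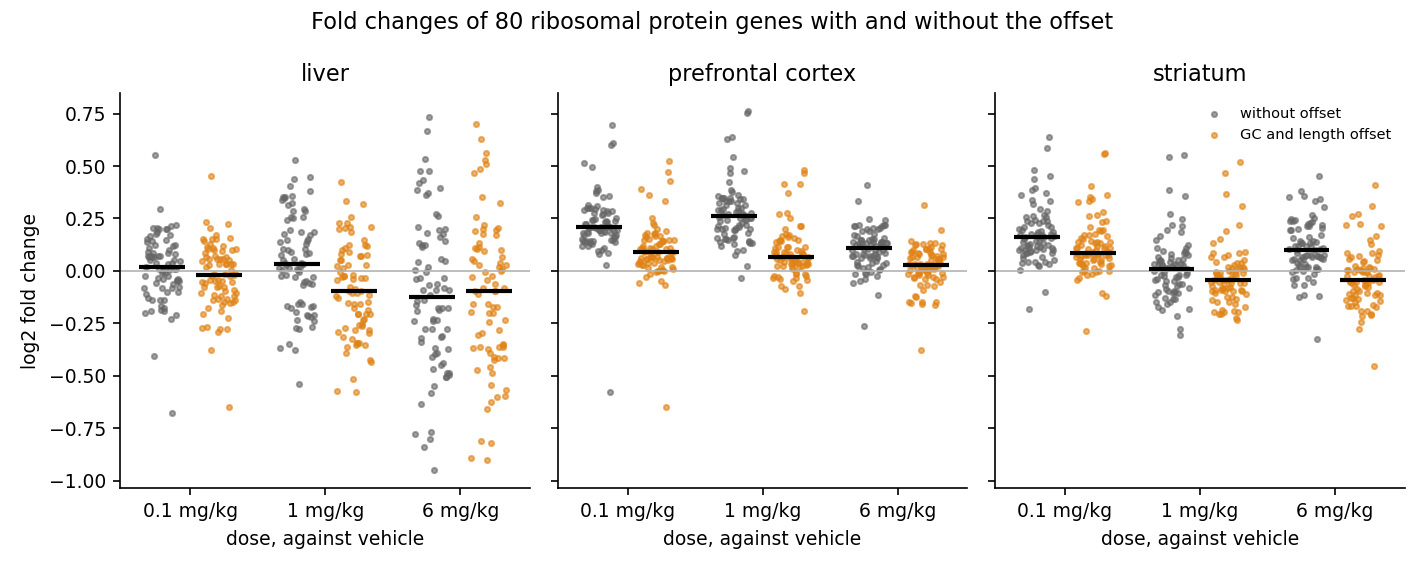
Log2 fold changes against vehicle of the 80 tested members in each tissue and dose, without (grey) and with (orange) the GC and length offset; each point is 1 gene and the black line the median. The prefrontal cortex medians move from 0.21, 0.26 and 0.11 to 0.09, 0.07 and 0.03, and the liver values at 6 mg/kg are the most spread.

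**Figure D3:**
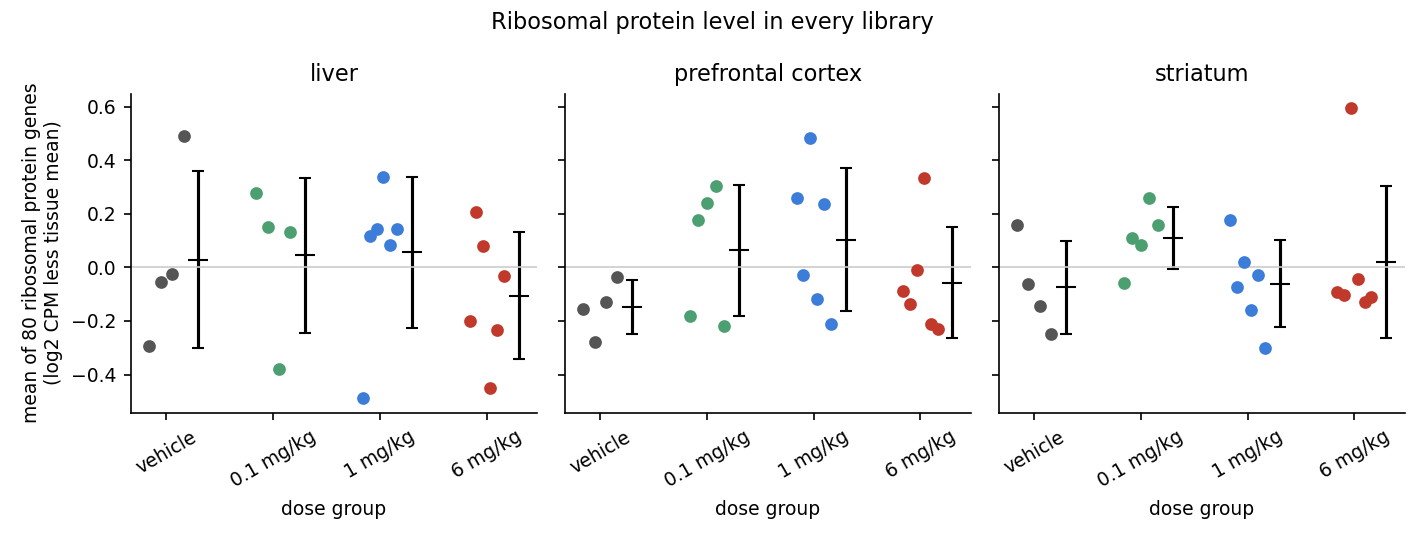
Mean over 80 members of log2 CPM less the tissue mean, for each library by tissue and dose group; black marks are the group mean and SD. The dose groups overlap in every tissue, and 1 striatum library at 6 mg/kg (0.59) lies far above its group.

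Library by library, the members of each brain region varied largely together, and those of liver less so. Each library was given the mean over the 80 members of log2 CPM less the tissue mean. In prefrontal cortex it ran from -0.28 to -0.04 in vehicle, from -0.22 to 0.30 at 0.1 mg/kg (median 0.18), from -0.21 to 0.48 at 1 mg/kg (median 0.11) and from -0.23 to 0.33 at 6 mg/kg (median -0.11). In striatum it ran from -0.25 to 0.16, -0.06 to 0.26, -0.30 to 0.18 and -0.13 to 0.59. In liver it ran from -0.29 to 0.49, -0.38 to 0.28, -0.49 to 0.34 and -0.45 to 0.21. Every dose group overlapped vehicle. The mean correlation between pairs of members, over deviations from the dose-group means, was 0.73 in prefrontal cortex (21 libraries), 0.69 in striatum (21) and 0.47 in liver (20).

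The member mean moved with the length trend of each library. The mean deviation had a Pearson correlation of -0.94 in prefrontal cortex with the library's trend of expression on transcript length (Spearman's rho between a gene's length and its deviation from the tissue mean), of -0.85 in liver and of -0.68 in striatum. Without the 2 libraries with the most extreme trend it was -0.92, -0.91 and -0.43. The level that the GC and length fit to the other genes gave for the members had correlations of 0.97 (prefrontal cortex), 0.91 (liver) and 0.87 (striatum) with the measured mean, and of 0.95, 0.87 and 0.68 without 2 libraries. The respiratory chain subunits followed the members with 0.98, 0.91 and 0.96. All points share library, depth and scaling, so these are descriptions. In prefrontal cortex the length trend had a mean of 0.30 in vehicle (0.17 to 0.44) and -0.13 at 1 mg/kg (-0.55 to 0.32), beside the median member shift of 0.26; its part in the shift was not tested beyond the offset.

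**Figure D4:**
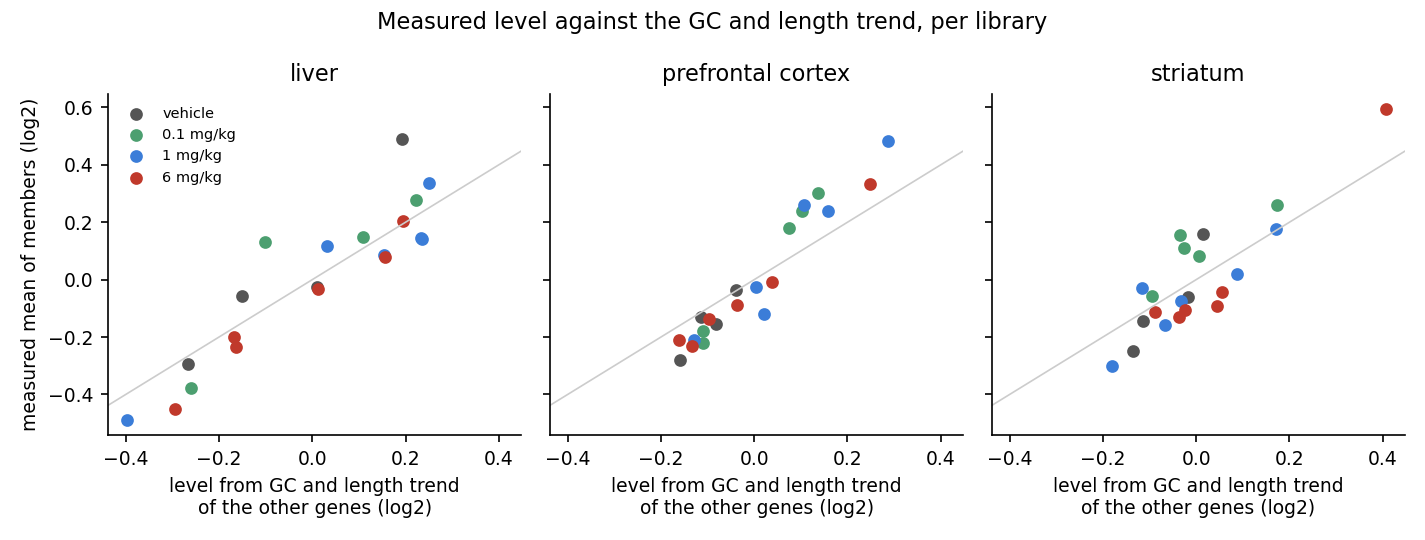
Measured mean of the members in each library (log2, less the tissue mean) against the level that a GC and length fit to the other genes gives for them, coloured by dose; the grey line marks equality. The measured and fitted values rise together, with correlations of 0.91 in liver, 0.97 in prefrontal cortex and 0.87 in striatum, but many points lie off the line of equality.

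Named members in the prefrontal cortex showed the size of these shifts. Rps29, a small-subunit zinc-binding protein, had 57.1, 69.0, 72.7 and 85.1 CPM in vehicle and 62.3 to 195 CPM at 1 mg/kg (mean 120 ± 48, SD). Its log2 fold change was 0.76 ± 0.23 (SE, edgeR adjusted p = 0.588), and 0.48 with the offset. Rpl38, known for its part in selective translation of Hox messenger RNAs, had 48.5 to 64.9 CPM in vehicle and 57.3 to 127 CPM at 1 mg/kg, a change of 0.64 ± 0.19 (adjusted p = 0.588) and of 0.37 with the offset. Rpl28, Rpl29 and Rpl35 were the members, of 80, in which every library at 1 mg/kg lay above every vehicle library, as in 1.06% of all genes. At 6 mg/kg that held for Rpl7 alone (1.19% of all genes), with 154, 163, 165 and 169 CPM in vehicle and 169 to 240 CPM at 6 mg/kg (0.25 ± 0.10, adjusted p = 0.467). Rpl39, which lines the exit tunnel, had 0.41 ± 0.16 (adjusted p = 0.429) and Rpl22l1 0.33 ± 0.16 (adjusted p = 0.522). Among estimates below vehicle those with the smallest p were -0.26 ± 0.22 for Rpl35a, -0.11 ± 0.14 for Rps2 and -0.05 ± 0.14 for Rpl27.

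In striatum at 6 mg/kg 1 library, animal 54, set the range. Rpl10 had 165, 177, 187 and 191 CPM in vehicle and 194, 204, 219, 220, 224 and 319 CPM at 6 mg/kg, the highest being that animal. It was the member in which all 6 mg/kg libraries lay above all vehicle libraries (1.67% of all genes), with a change of 0.35 ± 0.11 (SE, edgeR adjusted p = 0.208; 0.22 with the offset). Rpsa had 0.30 ± 0.12 (adjusted p = 0.247) and Rps2, a small-subunit protein near the mRNA entry channel, 0.33 ± 0.15 (adjusted p = 0.292). Without animal 54 the changes of Rpl10, Rpsa and Rps2 were 0.24, 0.17 and 0.21. Rps2 lay at 296 to 345 CPM in the 5 libraries at 0.1 mg/kg and at 384 to 599 CPM in the 6 at 6 mg/kg, without overlap (3.99% of all genes lay above in the same way), and at 253 to 408 CPM in vehicle. Its change from 0.1 to 6 mg/kg was 0.43 ± 0.14 (adjusted p = 0.0821), and 0.19 with the offset. In the other direction, all 6 mg/kg libraries lay below all 0.1 mg/kg libraries for Rps23rg1, which had 2 to 18 counts per striatum library. The share of all genes that lay below in this way is not given here. Rps23rg1 (-0.32 ± 0.49), Rpl39 (-0.11 ± 0.18) and Rps27l (-0.12 ± 0.21) had estimates below vehicle that were within 1 SE of 0. At 0.1 mg/kg all libraries lay above vehicle in 0.807% of all genes, and among the members for Rpl36a (45.2 ± 8.0 CPM in vehicle, 59.1 ± 6.5 at 0.1 mg/kg; SD) and for Rps3.

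In liver at 6 mg/kg the members did not move as a block. The estimates ran from -0.95 to 0.73, with 29 of 80 above 0. The lowest belonged to large-subunit genes. Rpl10a (chr17:28328471-28331033), a protein of the L1 stalk, had 246, 260, 267 and 274 CPM in vehicle and 94.5, 108, 134, 151, 187 and 244 CPM at 6 mg/kg, all below vehicle. Rps24, a small-subunit protein mutated in some cases of Diamond-Blackfan anaemia, was the other member wholly below vehicle, as were 3.5% of all genes, with 300 to 431 CPM in vehicle and 200 to 287 CPM at 6 mg/kg (-0.44 ± 0.20, edgeR adjusted p = 0.172). The change of Rpl10a was -0.78 ± 0.22 (SE, edgeR adjusted p = 0.0546), just outside the threshold. Rpl9 (chr5:65388364-65391431) had 202, 223, 243 and 266 CPM in vehicle and 72.1, 80.6, 91.5, 111, 150 and 219 CPM at 6 mg/kg, overlapping in animal 56 only, with a change of -0.95 ± 0.27 (adjusted p = 0.0587). Rpl41 went from 493 ± 139 to 290 ± 104 CPM (SD), a change of -0.77 ± 0.26 (adjusted p = 0.0925). With the offset Rpl10a, Rpl9 and Rpl41 stood at -0.89, -0.82 and -0.90, with adjusted p of 0.124, 0.180 and 0.157. The trend on GC content of these libraries was -0.30 to -0.17 in vehicle and -0.03 to 0.25 at 6 mg/kg, without overlap; its part in the liver values was not tested beyond the offset.

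Among positive liver estimates, the smallest p belonged to Rpl38, Rpl36 and Rpl19, and the first 2 spread widely within groups (SD 0.69 and 0.65 on the log2 scale, against 0.38 for Rpl19). Rpl38 had 114 to 241 CPM in vehicle and 101 to 387 CPM at 6 mg/kg (0.73 ± 0.43, edgeR adjusted p = 0.291), Rpl36 270 to 706 and 248 to 935 CPM (0.67 ± 0.40, adjusted p = 0.309), and Rpl19 383 to 628 and 353 to 787 CPM (0.42 ± 0.25, adjusted p = 0.307). In each of them the 6 mg/kg libraries spanned the vehicle range. Rps6, the substrate of the S6 kinases downstream of mTOR, lay between: 432 to 550 CPM in vehicle and 366 to 483 CPM at 6 mg/kg (-0.18 ± 0.15, adjusted p = 0.486). With 1 surrogate variable the signs of Rpl38 and Rpl36 turned (-0.10 each).

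Taken over all 20 liver libraries, though not within every dose group, the members formed sets that varied separately. In liver 8 members had a negative correlation with the mean of the other members over 20 libraries (deviations from dose-group means): Rpl3, Rpl4, Rpl5, Rpl7l1, Rpl9, Rpl10a, Rplp0 and Rps4x. In prefrontal cortex and striatum no member had one; the lowest was Rpl30, at 0.08 and 0.02. Among themselves the 8 had a mean pairwise correlation of 0.84, and the other 72 one of 0.61. The 8 were longer, with a median coding length of 840 bases against 438 for the other 72. The 8 were picked after their values were seen, so no test is given for them as a set.

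Rpl4 is an example. It encodes a long large-subunit protein that reaches into the exit tunnel (chr9:64173387-64178562), and only 16.5% of its 50-base stretches occur in other transcripts. It had 557, 578, 631 and 680 CPM in the vehicle livers and 164, 207, 302, 314, 540 and 581 CPM at 6 mg/kg, the 2 high values being animals 55 and 56. The change was -0.80 ± 0.28 (SE, edgeR adjusted p = 0.0976). Rplp0 went from 473 to 603 CPM in vehicle to 190 to 516 CPM at 6 mg/kg (-0.55 ± 0.23, adjusted p = 0.147), while the other stalk genes Rplp1 and Rplp2 had -0.37 ± 0.22 and -0.40 ± 0.21. At 6 mg/kg all 8 had negative estimates, from -0.95 to -0.47 (-0.89 to -0.35 with the offset), as did 43 of the other 72 members. The 8 were picked from these same libraries and moved together, so their number below 0 is not a count of independent results.

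As a mean, the 8 stood at 0.26, 0.33, 0.45 and 0.46 above the tissue mean (log2) in the vehicle livers, at -0.08, 0.22, 0.24 and 0.42 at 0.1 mg/kg, from -0.33 to 0.57 (median -0.09) at 1 mg/kg, and at -1.10, -0.90, -0.61, -0.26, 0.10 and 0.34 at 6 mg/kg. Thus 5 of 6 livers at 6 mg/kg lay below every vehicle liver, and animal 56 did not. Also below every vehicle liver were all at 1 mg/kg but animal 42 (0.57) and all at 0.1 mg/kg but animal 29 (0.42). Lying below vehicle was thus not particular to 6 mg/kg. The other 72 members had -0.36 to 0.49 in vehicle and -0.51 to 0.26 at 6 mg/kg, so these groups overlapped. Among the vehicle livers alone, animal 3 was lowest in both means (0.26 for the 8 and -0.36 for the other 72). Without animal 56 edgeR called 7 members at 6 mg/kg, all lower (Rpl3, Rpl4, Rpl5, Rpl7l1, Rpl9, Rpl10a and Rpl41), with 10.1% of all genes called, and without animal 55 it called 4 (Rpl4, Rpl5, Rpl9 and Rpl10a), with 7.91%. Leaving out each of the other libraries of these groups gave 0.

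**Figure D5:**
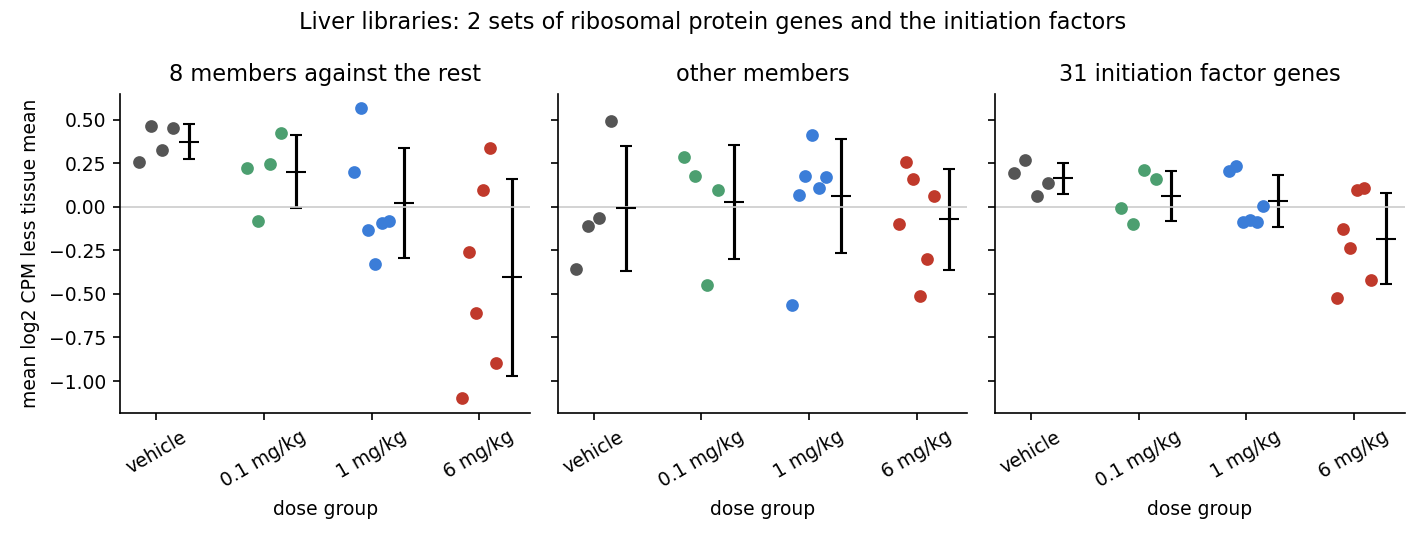
Mean log2 CPM less the tissue mean in each liver library by dose group, for the 8 members with a negative correlation to the rest, the other 72 members and the 31 initiation factor genes; black marks are the group mean and SD. The 8 members and the initiation factors reach their lowest values in the same libraries at 6 mg/kg (down to -1.10 and -0.52).

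The liver initiation factors varied with the 8. Their mean had a Pearson correlation of 0.93 with the mean of the 8 over 20 libraries, against -0.43 with the mean of all members. At 6 mg/kg 4 of 31 initiation factor genes had positive estimates, against 51.9% of all genes, and the median was -0.30 against 0.02. By edgeR 2 of the 31 fell, where 2.8% of all genes were called: Eif1ax, a start-codon scanning factor, by 0.75 on the log2 scale (SE 0.19, adjusted p = 0.0363), and Eif2s2, the beta subunit of eIF2, by 0.59 (SE 0.16, adjusted p = 0.0436). With the offset they stood at -0.61 (adjusted p = 0.124) and -0.41 (adjusted p = 0.154). Npm1, a nucleolar chaperone of ribosome assembly with a TOP messenger RNA, fell by 0.74 (SE 0.14, adjusted p = 0.0134), and Mybbp1a, a nucleolar transcription regulator, rose by 0.79 (SE 0.21, adjusted p = 0.0455). With the offset they stood at -0.49 (adjusted p = 0.05001, just above the threshold) and 0.63 (adjusted p = 0.112), so neither was called. Of 8 elongation factor genes 0 were called (median -0.43), of 37 ribosome biogenesis genes 1 rose and 1 fell, and of 13 mTOR pathway genes 0 were called (median 0.30), all beside the 2.8% of all genes. In the same livers the 5 macrophage markers, all in the table, summed to 115 to 169 CPM in vehicle and to 184 to 361 CPM at 6 mg/kg, without overlap. They also lay above vehicle at 0.1 mg/kg (189 to 231 CPM), where the mean of the 8 ran from -0.08 to 0.42, and overlapped vehicle at 1 mg/kg (150 to 290 CPM), where its median was -0.09; their part in these results was not tested.

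The third comparison asked whether the response to 6 mg/kg differed between tissues, by the interaction of dose and tissue. No member was called by edgeR in any of the 3 interactions, in which 0% (striatum minus prefrontal cortex), 0.899% (liver minus prefrontal cortex) and 0.0277% (liver minus striatum) of all genes were called; 3, 18 and 13 members had an unadjusted p under 0.05, beside 6.43%, 20% and 14.3% of all genes. The median member stood at -0.03, -0.25 and -0.24. With 1 animal left out these ran from -0.16 (without animal 54) to 0.11 (without 55), from -0.33 (without 53) to -0.09 (without vehicle animal 8), and from -0.43 (without vehicle animal 3) to 0.01 (without vehicle animal 8). Rpl22l1, a paralog that can replace Rpl22, had the smallest p in liver minus prefrontal cortex, with -0.98 ± 0.28 (SE, adjusted p = 0.0802), followed by Rpl9 with -1.08 ± 0.33 (adjusted p = 0.0930). DESeq2 called 3 members lower there, Rpl9, Rpl22l1 and Rps24, with 6.47% of all genes called. Between the brain regions the smallest p belonged to Rpl35a, at 0.64 ± 0.24 (adjusted p = 0.746).

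Rps27a, which is made as a fusion with ubiquitin, varied 5.06-fold between its lowest and highest liver library (88.0 to 445 CPM), 4.29-fold in prefrontal cortex (38.9 to 167 CPM) and 4.11-fold in striatum (39.6 to 163 CPM). Its correlation with the other members was 0.46 in prefrontal cortex and 0.27 in striatum, against medians of 0.89 and 0.87 over the 80 members; in liver it was 0.79. Rpl30, at 0.08 and 0.02, was lower in both brain regions, and Rps2, at 0.27 in striatum, was as low there. In the vehicle striata its values were 39.6, 49.5, 73.0 and 132 CPM, so the vehicle group alone covered most of the range. Of its 50-base stretches 72.0% occur in transcripts of other genes. Rps15a was the opposite, with a within-group SD of 0.12 on the log2 scale in prefrontal cortex, against 0.58 for Rps27a.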

How the data were processed

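The authors deposited 1 table of raw gene counts for each tissue, keyed by Entrez gene number. The submitters' processing notes name HISAT2, FastQC and the mm10 build; the counter, its strand setting and its treatment of reads that match several places are not given in the sources used here. Per the labels' protocols, RNA came from tissue punches, and messenger RNA was enriched by poly(A) capture or rRNA removal, without saying which.

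Counts were fitted per tissue with edgeR 4.0.16 (TMM scaling, filterByExpr, robust quasi-likelihood test, R 4.3.3), over all dose groups of a tissue, or over 2 tissues for vehicle and interaction comparisons. Adjusted p is Benjamini-Hochberg over all tested genes, with a threshold of 0.05. Standard errors were recovered from the F statistic (the size of the log2 change over the root of F; left blank for changes near 0). CPM in dose groups is TMM-scaled within a tissue; tissue comparisons and levels per length use 1 scaling over 62 libraries. A prior count of 2 was added for log2 CPM.

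The GC and length offset was fitted per library on genes other than the members, with splines of 4 degrees of freedom. Transcript features came from GENCODE transcripts and promoter sequences from RefSeq (GRCm38.p6). The model was also run on simulated data in which each gene was drawn on its own. Those data held no GC or length trend and no joint movement of members, so they cannot speak to either. Alternatives were DESeq2 1.42.0, total-count scaling, DESeq2 size factors, no low-count filter, the 2 groups alone, 1 surrogate variable (sva 3.50.0), the offset, the animal number as a block and leaving out each library.

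The members and lists were chosen with earlier results of these data known. The choice of transcript, the coding-length scale, the 50-base sharing and the co-movement sets were chosen after the data had been seen. Named genes were the 3 members with the smallest p in each direction at 6 mg/kg in each tissue, the 2 with the smallest p in every other comparison, near-copy pairs, the stalk genes and a few standard reference members, the 3 highest and 3 lowest members per length, and the 2 most and 2 least variable in a tissue; members without overlap between groups and the set of 8 in liver were added after their values were seen. Values of single members that are not named are not reported here.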

Additional observations from a re-analysis of the deposited data

Results flagged for a closer look

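Of 76 checks, each of 1 value in 1 dose group (12 of the member mean and the rest of single named genes), 7 had 1 library far from the others; about 5% would by chance. All 7 came from liver at 1 mg/kg or striatum at 6 mg/kg. In striatum at 6 mg/kg animal 54 stood apart in the mean of the members, at 0.59 (log2, less the tissue mean) against -0.13 to -0.04 in the other 5 libraries. The same library was highest in each named gene that stood out: Rpl10 at 319 CPM (others 194 to 224), Rpsa at 787 (453 to 522), Rps2 at 599 (384 to 410), Rpl39 at 81.3 (47.1 to 53.9) and Rpl41 at 333 CPM (184 to 228). These 6 values are from 1 library and so are not independent of each other. In liver at 1 mg/kg animal 41 had a mean of -0.49, against 0.08 to 0.34 in the other 5 libraries. By edgeR's test of the dose response between tissues no member was called.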

How the results depend on the processing

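Of the counts of called members recomputed under an alternative setting, 119 stayed within 1.5 times and 7 became larger; with 1 library left out, 153 stayed, 4 became larger and 3 smaller. In liver at 6 mg/kg the count went from 0 to 3 with 1 surrogate variable (Rpl9, Rpl22l1 and Rps24) and 4 with DESeq2, all lower, and ranged from 0 to 7 when 1 library was left out. In striatum at 6 against 0.1 mg/kg it was 4 with the GC and length offset (all lower), 1 with a surrogate variable and 1 with DESeq2 (Rps2, higher). Between vehicle striatum and prefrontal cortex it was 26 with total-count scaling, and 1 to 21 with 1 animal left out. With total-count scaling the median of all genes rose as well, from 0.02 to 0.10. In the interaction of liver minus prefrontal cortex it was 3 with DESeq2 (all lower) and 0 to 2 with 1 animal left out (Rpl9 and Rpl10a without animal 56). The share of all genes called is not given for the surrogate variable and total-count fits, nor for this interaction without animal 56. Those counts therefore describe the fits and are not results about the members.

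Directions turned for Rpl36 (-0.10) and Rpl38 (-0.10) in liver at 6 mg/kg with 1 surrogate variable, for Rpl27 in prefrontal cortex at 6 mg/kg without vehicle animal 8 (0.0049; range -0.15 to 0.0049), and in striatum at 6 mg/kg for Rpl39 without vehicle animal 4 (0.00078) or 3 (0.00033; range -0.26 to 0.00078) and Rps23rg1 without vehicle animal 4 (0.034; range -0.48 to 0.034); the cause was not tested. The median shift in prefrontal cortex at 1 mg/kg became 0.03 with 1 surrogate variable.

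Animal numbers were shared across tissues. Among vehicle and 6 mg/kg libraries, same-numbered ones correlated at -0.09 to 0.22 between striatum and prefrontal cortex. The mean correlation with other numbers was -0.08 to 0.03 there. Between liver and a brain region the same-numbered correlations ran from -0.11 to 0.11. Not all were over 0.1, so the numbers were not used as pairs. The labels do not say that a number is 1 mouse, and not every library correlated best with its own number. With the number as a replicate block, 15 members were called in vehicle striatum against prefrontal cortex (11 with the offset). In liver against prefrontal cortex 79 were called (74 with the offset), in liver against striatum 79 (68), and in each interaction 0. The share of all genes called in these block fits is not given here, so the counts describe the fits only. Without the block it was 22.2%, 84.9% and 83.7% in the 3 vehicle comparisons. With 4 vehicle libraries a tissue, small shifts in genes as variable as Rpl38 in liver were not resolved.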

Other observations

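Across tissues, libraries with the same animal number gave different pictures for the member mean (deviations from dose-group means). Between striatum and prefrontal cortex the Pearson correlation was 0.35 over 21 numbers, and between liver and each brain region it was negative (-0.38 with prefrontal cortex and -0.34 with striatum, 20 numbers each). These are descriptions, since the labels do not say that a number is 1 mouse. Of the single members Rpl7l1 had the highest correlation between the brain regions, at 0.65, followed by Rps3 at 0.57.

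The SD of a single member over libraries within dose groups had a median of 0.36 in liver, 0.23 in prefrontal cortex and 0.21 in striatum (log2), against 0.36, 0.21 and 0.22 over all tested genes. For the member mean it was 0.26, 0.20 and 0.18.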
